A study of Mus musculus with 6 samples.

Results

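The p53 tumour suppressor pathway was followed through 10 genes chosen by name: Trp53 itself, both genes of the Ink4-Arf locus (Cdkn2a and Cdkn2b), and 7 genes that p53 is known to induce (Mdm2, Cdkn1a, Ccng1, Phlda3, Zmat3, Trp53inp1 and Aen). Each measured gene had 1 probe set that the platform annotation pairs with its symbol alone, and that probe set stands for the gene. This gave 9 of the 10 genes, out of 22180 genes named on the array. The annotation used here pairs no probe set with Trp53, so its RNA was not analysed here. Whether the lines on these arrays make Trp53 RNA is therefore not addressed by these values.

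The RNA came from cultured leukaemia cells of the mouse B lineage (acute lymphoblastic leukaemia, B-ALL) transformed by the BCR-ABL kinase. There were 3 arrays of cells given the vehicle dimethyl sulphoxide (DMSO) and 3 of cells given 312 nM dihydroartemisinin (DHA), an artemisinin antimalarial, both for 4 h. All groups share the p185 form of BCR-ABL. The growth protocol names lines described as p185+, p185T315I+ (a kinase mutation known for imatinib resistance), Arf-/- and p53-/-, and no label ties an array to one of these genotypes. The extraction text names 2 h as well, but the treatment text gives 4 h alone. Replicate numbers follow accession order and only name the arrays. Nothing in the labels says that replicates were separate cultures, so p-values measure the spread between these arrays, which may be technical.

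As background, p53 is a transcription factor that is held low by MDM2, a ubiquitin ligase whose gene p53 itself induces. Cdkn2a encodes both p16INK4a, an inhibitor of the cyclin D kinases, and p19ARF, which binds MDM2 and so frees p53 when an oncogene such as BCR-ABL drives cells too hard. Loss of ARF or p53 lets pre-B cells that carry BCR-ABL grow out as leukaemia, and loss of the locus is common in the human disease. Cells without functional p53 keep some RNA of its targets, since other factors also drive them.

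The Cdkn2a gene has a pair of starts in RefSeq (assembly GRCm38.p6), 12427 bases apart. The outer start is that of the Arf transcript and the inner one that of the Ink4a transcript. Both transcripts share their later exons. The windows of 250 bases before to 50 bases after each start are shown because they mark the separate beginnings of the gene's products. Capitals mark CG dinucleotides, of which the outer window holds 45 and the inner one 12, against a median of 7 over all 32851 promoter windows of the same length.
Cdkn2a outer start (chr4:89294570-89294869, minus strand): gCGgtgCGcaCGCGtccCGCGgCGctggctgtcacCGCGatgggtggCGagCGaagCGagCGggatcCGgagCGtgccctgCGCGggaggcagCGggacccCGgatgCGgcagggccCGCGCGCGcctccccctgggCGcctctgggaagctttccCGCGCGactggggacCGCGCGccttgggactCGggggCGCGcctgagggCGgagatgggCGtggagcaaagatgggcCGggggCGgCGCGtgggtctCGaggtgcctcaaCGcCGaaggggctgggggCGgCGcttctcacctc
Cdkn2a inner start (chr4:89282143-89282442, minus strand): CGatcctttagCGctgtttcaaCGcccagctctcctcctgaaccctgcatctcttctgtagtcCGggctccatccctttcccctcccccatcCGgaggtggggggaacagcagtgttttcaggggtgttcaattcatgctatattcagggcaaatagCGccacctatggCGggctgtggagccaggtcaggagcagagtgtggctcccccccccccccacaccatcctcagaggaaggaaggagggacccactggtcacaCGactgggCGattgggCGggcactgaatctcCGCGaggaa
The sources used here do not say which exons the Cdkn2a probe set covers. Its signal can therefore not be assigned to Arf or to Ink4a, and it is no check on an Arf-/- label.

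The DNA sequence that p53 binds is made of paired copies of a palindromic 10-base motif, the p53 half-site, which has C as the fourth base and G as the seventh. Of the 10 genes, 8 had RefSeq promoter windows, 11 in all, and 6 of these windows, in 5 genes, held an exact half-site (Aen, where 1 site lies in both of its overlapping windows, Mdm2, Ccng1, Trp53 and Cdkn1a). Over all promoter windows 8.36% held one. The motif reads the same on both strands, so each match counts for both. The stretches around the matches in 4 of the measured targets have the exact half-sites in capitals and are given so that the motif can be compared between genes whose RNA is described next.
Cdkn1a (chr17:29090871-29090972, plus strand): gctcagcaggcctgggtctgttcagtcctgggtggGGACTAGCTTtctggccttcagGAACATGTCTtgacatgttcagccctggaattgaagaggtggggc
Ccng1 (chr11:40755427-40755506, minus strand): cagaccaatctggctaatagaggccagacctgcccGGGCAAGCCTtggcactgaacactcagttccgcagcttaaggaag
Mdm2 (chr10:117710900-117710979, minus strand): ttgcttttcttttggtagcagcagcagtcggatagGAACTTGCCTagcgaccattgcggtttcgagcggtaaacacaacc
Aen (chr7:78895902-78895981, plus strand): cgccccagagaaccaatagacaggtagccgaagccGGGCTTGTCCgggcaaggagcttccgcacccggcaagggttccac
Cdkn1a held 2 exact half-sites with 12 bases between them, the first starting 73 bases before the outer of its 2 annotated starts. The window at its inner start, 2790 bases further on, held none. In Ccng1 the exact half-site began 185 bases before the start, in Mdm2 186 bases before it, and in Aen 121 bases before the inner of its starts. With 1 mismatch allowed outside the core C and G, a second half-site adjoined the exact one in Ccng1 and the later exact one in Cdkn1a. The windows of Phlda3, Cdkn2a and Cdkn2b held no exact half-site, which says only that the letters are not in these windows. The targets were chosen as genes known to be induced by p53, so the matches describe the windows and show nothing about p53 in these cells.

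**Figure D1:**
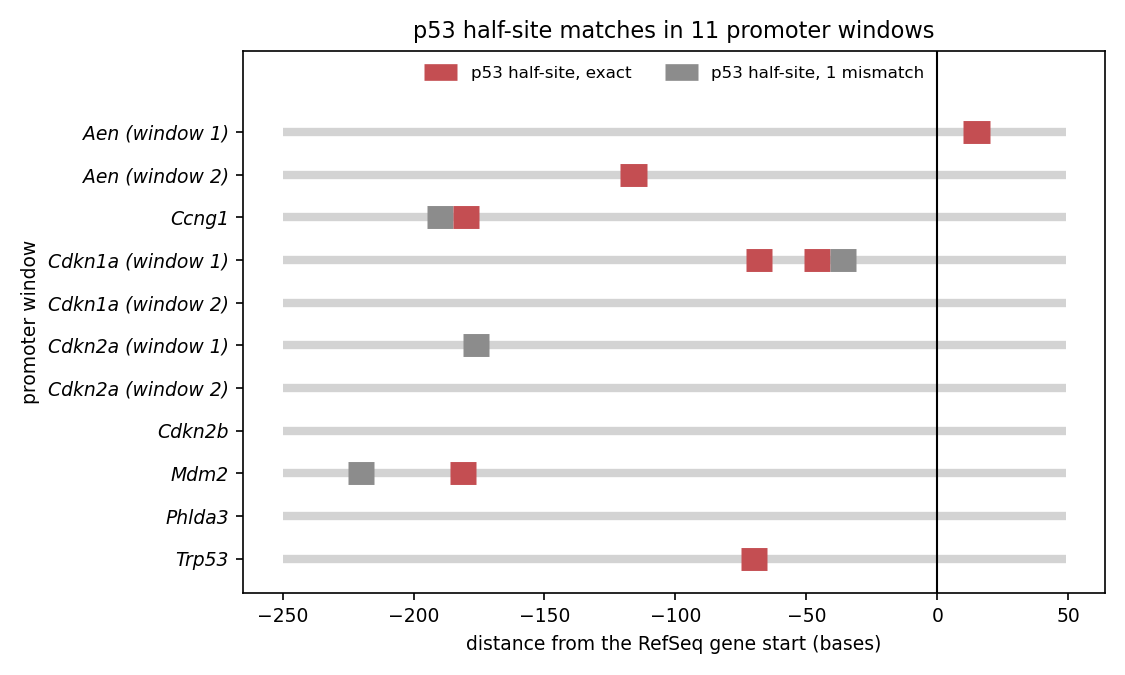
Positions of p53 half-site matches in the 11 RefSeq promoter windows of 8 genes. The x axis is the distance in bases from the annotated gene start (vertical line); grey bars are the windows, red boxes exact matches and dark grey boxes matches with 1 mismatch outside the core. Exact matches lie in 6 windows, and Cdkn1a window 1 holds 2 of them.

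In DHA-treated cells the RNA of 3 p53 targets, Cdkn1a, Ccng1 and Phlda3, lay below every vehicle array, by 10.8% to 16.6% on average in the values as deposited. That of Cdkn2a lay above every vehicle array, by 16.4% on average. None of the 9 measured genes passed the test over all genes (limma, Benjamini-Hochberg adjusted p at or under 0.05), the smallest adjusted p being 0.279. Of all 15526 tested genes 0.0902% passed. At an unadjusted p under 0.05 there were 4 of the 9 genes, 1 higher and 3 lower, against 12.0% of all tested genes (5.94% higher and 6.08% lower). Groups did not overlap in the same 4 genes, 1 higher and 3 lower, and in 15.8% of all tested genes (7.64% higher and 8.19% lower). The median log2 fold change of the 9 genes was -0.033, beside 0.0027 over all tested genes, and it was -0.090 without vehicle replicate 1 and -0.054 without vehicle replicate 2. The plot of levels by array shows the separation and the spread for each gene.

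**Figure D2:**
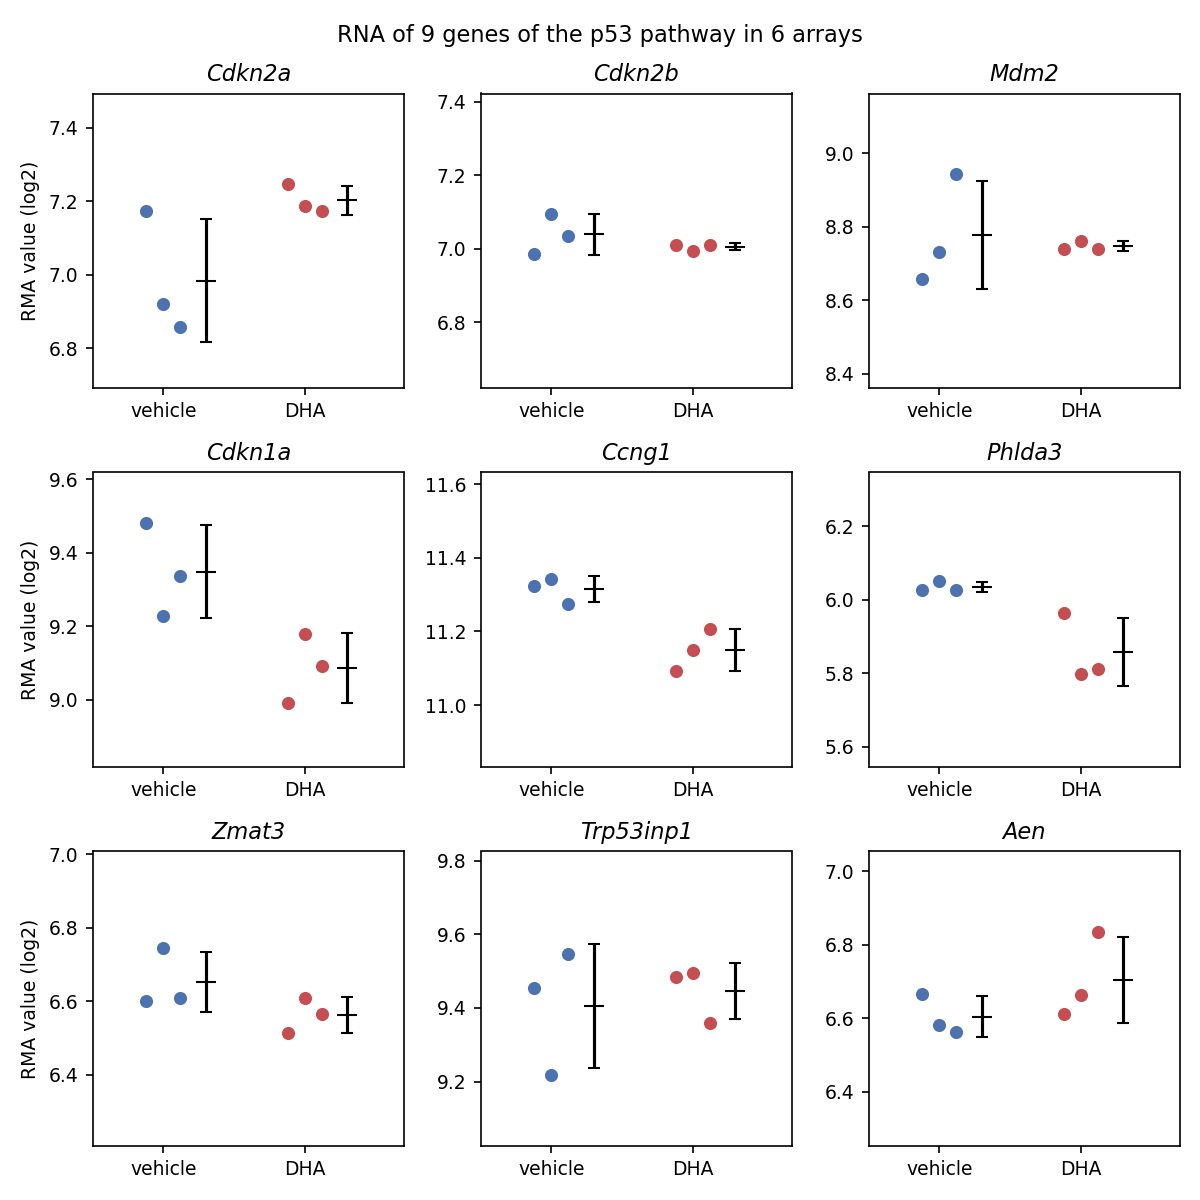
Robust multi-array average (RMA) values on the log2 scale of the 9 measured genes. Each dot is 1 array (blue, vehicle; red, DHA), the black bar beside each group is its mean ± SD (n = 3), and every panel spans 0.8 log2 units, although its range differs. In Cdkn1a, Ccng1 and Phlda3 the red dots lie below the blue ones, in Cdkn2a they lie above, and in the other 5 genes the groups overlap.

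Within the Ink4-Arf locus, the Cdkn2a probe set gave log2 values of 7.17, 6.92 and 6.86 in the vehicle arrays and 7.25, 7.19 and 7.17 in the DHA arrays. Vehicle replicate 1 stood apart from the other vehicle arrays and nearly reached the DHA arrays, since only 0.00014 on the log2 scale separated it from the lowest of them. The groups averaged 6.98 ± 0.17 and 7.20 ± 0.040 (SD, n = 3 per group), and DHA minus vehicle was 0.22 (SE 0.087) with a 95% interval from 0.013 to 0.42 and a limma adjusted p of 0.390. After median centring of the arrays the groups overlapped. The exact two-sided permutation test gave p = 0.1, the smallest that 3 against 3 arrays allow. The level in vehicle was at the 64.7th percentile of all genes on the array, above the 4.52 under which genes were left out. Probe sets differ in affinity, so such a percentile describes signal and is no measure of how much RNA one gene has against another.

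Cdkn2b, which lies beside Cdkn2a and encodes p15INK4b, a second inhibitor of the cyclin D kinases, measured 6.99, 7.10 and 7.03 with vehicle and 7.01, 6.99 and 7.01 with DHA. Its groups overlapped. The estimate for Cdkn2b was -0.033 log2 units (SE 0.047; -0.059 to -0.0047 on leaving out single arrays), or -2.3%, with a 95% interval from -9.6% to 5.7% and a limma adjusted p of 0.818. Some genes near the locus were read beside it, because leukaemias can lose the whole region. Mtap, an enzyme of methionine salvage whose gene adjoins Cdkn2a in RefSeq, averaged 10.66 ± 0.058 in vehicle and 10.43 ± 0.11 in DHA arrays (SD, n = 3 each), with groups that did not overlap and a limma adjusted p of 0.251. Its values lay far above the filter level of 4.52 in all 6 arrays. The signal of Mtap does not show whether Cdkn2a or Cdkn2b is present, and loss of the region was not tested. Dmrta1, on the side of Cdkn2b, gave 3.50 with vehicle and 3.53 with DHA and lay under the filter on dim genes. Elavl2, further out on the side of Cdkn2b, differed by 0.072 log2 units (adjusted p = 0.735, limma). Klhl9, which was not among the nearest genes on either side, had -0.080 (adjusted p = 0.582, limma).

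Factors known to silence or induce the Ink4a-Arf locus, among them the Polycomb proteins BMI1 and EZH2 and the transcription factors MYC and E2F1, gave 13 tested genes of 14 listed. None passed the limma test in either direction, 1 was at an unadjusted p under 0.05 (12.0% of all tested genes were), and their median log2 fold change was 0.082. Groups did not overlap in 3 of the 13, beside 15.8% of all tested genes. Ezh2, the methyltransferase that marks silenced genes, averaged 12.16 ± 0.053 in vehicle and 12.31 ± 0.098 in DHA arrays (SD, n = 3 each; limma adjusted p = 0.414). Tbx2, a repressor of the locus, differed by 0.15 log2 units (adjusted p = 0.430, limma) and Zbtb7a, which represses Arf, by -0.13 (adjusted p = 0.499, limma).

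Among the p53 targets, Cdkn1a encodes p21, the inhibitor of cyclin-dependent kinases through which p53 arrests the cell cycle. It measured 9.48, 9.23 and 9.34 on the log2 scale with vehicle and 8.99, 9.18 and 9.09 with DHA. Every DHA array lay under every vehicle array, with 0.049 between the nearest pair. The means were 9.35 ± 0.13 and 9.09 ± 0.095 (SD, n = 3 per group), and their difference was -0.26 (SE 0.081) with a 95% interval from -0.45 to -0.069, or 16.6% lower. The limma adjusted p was 0.288, and the exact permutation p was 0.1. Of all tested genes, 5.02% differed by at least as much in either direction. The interval is not adjusted for the number of genes, and within it lies no rise of Cdkn1a.

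Ccng1, which encodes cyclin G1, a partner of protein phosphatase that acts on MDM2, had a signal at the 98.3rd percentile in vehicle. Its values were 11.32, 11.34 and 11.28 with vehicle and 11.09, 11.15 and 11.21 with DHA. The groups were 0.070 apart at their nearest and each varied little. The DHA mean was 10.8% lower, at -0.16 log2 units (SE 0.050), with a 95% interval from -0.28 to -0.045 and a limma adjusted p of 0.279.

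Phlda3, which encodes a lipid-binding repressor of the kinase AKT, measured 6.03, 6.05 and 6.03 with vehicle and 5.96, 5.80 and 5.81 with DHA. DHA replicate 1 was the nearest to the vehicle arrays, 0.061 under the lowest of them. Phlda3 was 11.5% lower on average, at -0.18 log2 units (SE 0.058), with a 95% interval from -0.31 to -0.038 and a limma adjusted p of 0.315. After quantile normalization its groups overlapped. Vehicle replicates 1 and 3 carried the same deposited value, so the vehicle SD of 0.014 is small partly through a tie. Of all genes on the array, 39.0% had at least 2 arrays with the same value to the 4 decimals kept.

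Mdm2, which encodes the ubiquitin ligase that degrades p53, measured 8.66, 8.73 and 8.94 with vehicle and 8.74, 8.76 and 8.74 with DHA. All DHA values lay inside the range of the vehicle values. DHA minus vehicle was -0.031 log2 units (SE 0.077) at a limma adjusted p of 0.904, and its 95% interval ran from -13.8% to 11.2%. Without vehicle replicate 3, the highest array, the estimate was 0.052, and its sign thus rested on that array.

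Zmat3, a zinc finger protein that binds RNA, measured 6.60, 6.75 and 6.61 with vehicle and 6.51, 6.61 and 6.57 with DHA. DHA replicate 2 carried the same value as vehicle replicate 3 and lay above vehicle replicate 1, so the groups overlapped narrowly, and after median centring they did not. Zmat3 differed by -0.089 log2 units (SE 0.058), with a 95% interval from -0.23 to 0.050 and a limma adjusted p of 0.588. Without vehicle replicate 2, the highest array, the estimate was -0.042. A further probe set (17396673) that the annotation pairs with Zmat3 and a second symbol gave 5.37 ± 0.19 and 5.38 ± 0.14 (SD, n = 3 per group; exact permutation p = 1) and did not enter the fit.

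Trp53inp1 encodes a stress-induced protein that promotes p53 activation and autophagy. It measured 9.45, 9.22 and 9.55 with vehicle and 9.48, 9.49 and 9.36 with DHA, and the DHA values lay inside the vehicle range. The difference was 0.040 log2 units (SE 0.092), its 95% interval ran from -0.18 to 0.26, and the limma adjusted p was 0.896. Without vehicle replicate 2, the lowest array, it was -0.054.

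Aen, the apoptosis-enhancing nuclease, measured 6.67, 6.58 and 6.56 with vehicle and 6.61, 6.66 and 6.83 with DHA. DHA replicate 3 was the highest, and the other DHA arrays fell among the vehicle values. Aen differed by 0.10 log2 units (SE 0.070), with a 95% interval from -0.068 to 0.27 and a limma adjusted p of 0.622. Without DHA replicate 3 the Aen estimate was 0.034. Aen and Trp53inp1 were the 2 of the 7 targets with positive estimates. Averaged over the 7 measured targets, the level was 8.32, 8.27 and 8.33 in the vehicle arrays and 8.20, 8.24 and 8.23 in the DHA arrays. Over all genes on the array it was 6.18, 6.17 and 6.18 with vehicle and 6.18, 6.18 and 6.19 with DHA. Of the 7 estimates 5 were negative, beside 48.8% of those of all tested genes.

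**Figure D3:**
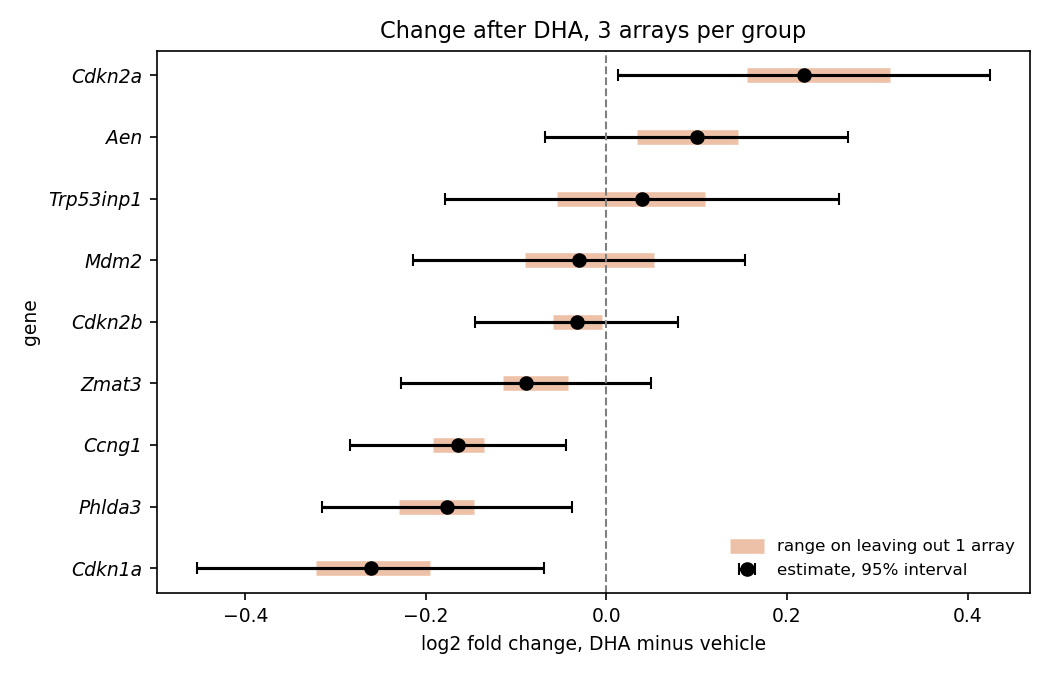
Log2 fold change, DHA minus vehicle, of the 9 measured genes in order of size. Black dots and bars are limma estimates with 95% intervals unadjusted for the number of genes, and orange bands are the range of the estimate when 1 of the 6 arrays is left out. Cdkn1a, Phlda3 and Ccng1 lie below 0 and Cdkn2a above it over their whole interval, and the bands of Mdm2 and Trp53inp1 cross 0.

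The genes with profiles nearest to those of the most variable members were sought over all tested genes, by the root-mean-square difference between mean-centred log2 values in the 6 arrays. For Cdkn1a (SD 0.17 over the arrays) these were Med29, a subunit of the Mediator complex, at 0.031, Fam78a at 0.035 and Ttyh3 at 0.040. For Cdkn2a (SD 0.16) they were Kctd12b at 0.036, Spice1, a centriole and spindle protein, at 0.041 and Ttc38 at 0.048. Differences this small among so many genes describe only which profiles look alike in 6 arrays.

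Other genes that p53 is known to induce gave 35 tested genes of 44 listed, in 4 lists by role. One alone passed the limma test, Sesn2, an inhibitor of mTORC1 that is also known as an ATF4 target. It rose from 6.81, 6.51 and 6.28 with vehicle to 8.51, 8.17 and 8.51 with DHA on the log2 scale (log2 fold change 1.86, limma adjusted p = 0.0234). Of all tested genes 0.0837% passed as higher and 0.00644% as lower. Sesn2 kept its call in 1 of the 6 fits that left out an array, the one without DHA replicate 2 (adjusted p = 0.0351), and lost it in the other 5, when DHA replicate 1, DHA replicate 3 or any vehicle array was left out, with limma adjusted p up to 0.302. Its log2 fold change lay between 1.74 and 2.00 across the 6 fits that each left out 1 array. Groups did not overlap in 16 of the 35 genes, 8 higher and 8 lower, beside 7.64% of all tested genes higher and 8.19% lower. The median log2 fold change of the 35 genes was 0.034, and it was -0.020 without vehicle replicate 2.

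Targets that act in arrest and feedback had a median of 0.037 over 9 tested genes. Plk3, a stress-activated kinase, averaged 7.07 ± 0.057 in vehicle and 7.35 ± 0.10 in DHA arrays (SD, n = 3 each; limma adjusted p = 0.195). Gtse1, which carries p53 out of the nucleus in G2, had 10.01 ± 0.036 and 9.71 ± 0.13 (SD, n = 3 per group; limma adjusted p = 0.196), and Ckap2, a spindle protein, differed by -0.24 log2 units (adjusted p = 0.422, limma). Gtse1 and Ckap2 are known to be mostly made in dividing cells, and whether cell division differed between the groups was not tested. The sign of this list's median changed without vehicle replicate 2 (-0.020) and with array weights (-0.019).

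Targets that act in apoptosis had a median of 0.0091 over 9 tested genes, whose sign turned in 5 of 16 alternatives and which ran from -0.029 without DHA replicate 2 to 0.038 without vehicle replicate 1. Pmaip1, which encodes the BH3 protein NOXA, differed by 0.21 log2 units (95% interval 0.061 to 0.35; limma adjusted p = 0.270). Steap3, an iron reductase, had -0.25 (95% interval -0.41 to -0.090; limma adjusted p = 0.241), and Ei24, an endoplasmic reticulum protein, had -0.16 (95% interval -0.28 to -0.040; limma adjusted p = 0.298). Groups did not overlap in these 3 genes, which differed in direction. Over all 9 tested genes of the list, groups were apart in 2 higher and 3 lower genes. Of all tested genes, 7.64% were apart and higher and 8.19% apart and lower.

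Targets that act in metabolism had a median of 0.036 over 11 tested genes (0.026 to 0.063 on leaving out single arrays) and held the largest differences of the 4 lists. Beside Sesn2, Rrm2b, the p53-induced subunit of ribonucleotide reductase, measured 7.87, 7.96 and 7.85 with vehicle and 8.83, 8.47 and 8.72 with DHA (log2 fold change 0.77; limma adjusted p = 0.0636). Ddit4, an inhibitor of mTORC1 that several stresses induce, had 9.11 ± 0.41 and 10.09 ± 0.17 (SD, n = 3 per group; limma adjusted p = 0.141). Targets that act in DNA repair had a median of -0.012 over 6 tested genes, which was 0.031 without DHA replicate 2 and -0.046 without DHA replicate 1. Polk and Polh, which encode DNA polymerases that copy past lesions, differed by 0.13 and -0.16 log2 units (adjusted p = 0.342 and 0.279, limma), and Xpc, a damage sensor of nucleotide excision repair, had -0.063 (limma adjusted p = 0.765).

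**Figure D4:**
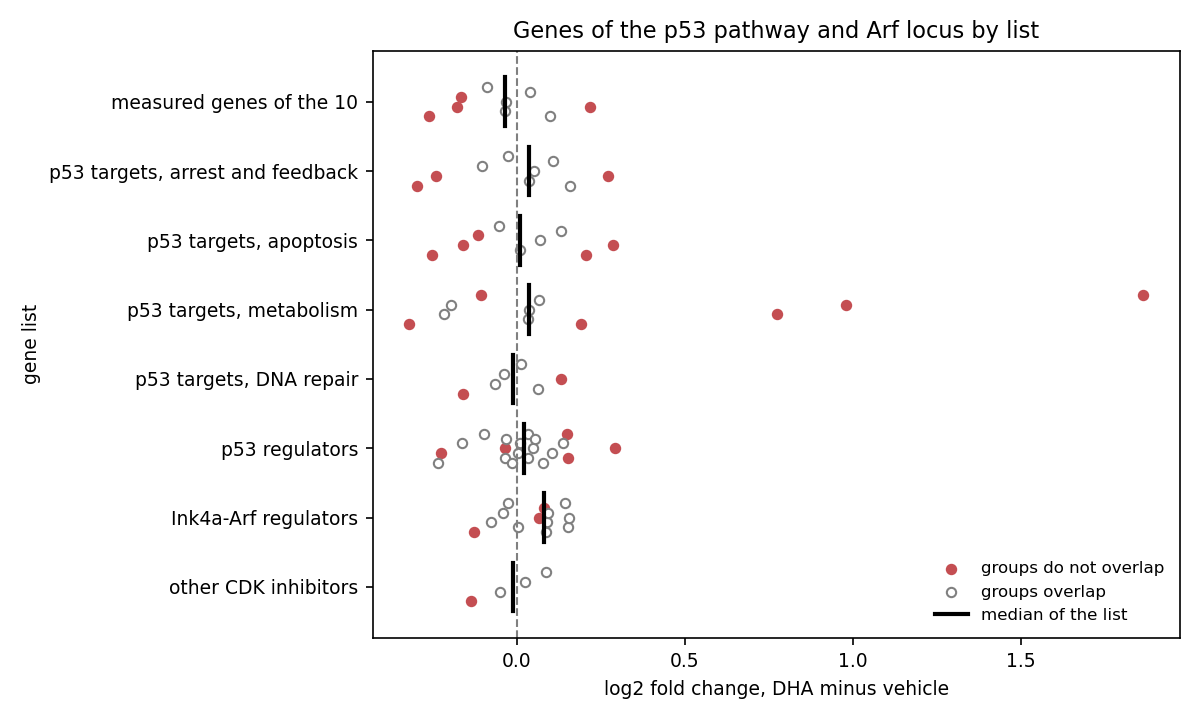
Log2 fold change, DHA minus vehicle, of each tested gene (dots) in 8 lists of the p53 pathway and the Arf locus. Red dots are genes whose vehicle and DHA arrays do not overlap, open dots genes whose arrays overlap, and black ticks the list medians. List medians lie between -0.033 and 0.082, and Sesn2 at 1.86 is the point farthest right.

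Genes that control p53 itself gave 20 tested genes of 22 listed. Their median difference was 0.022 log2 units (0.0001 without DHA replicate 3 and 0.0050 without vehicle replicate 1), and none passed the limma test. At an unadjusted p under 0.05 there were 5, 3 higher and 2 lower, beside 5.94% of all tested genes higher and 6.08% lower. Rchy1, which encodes the p53 ubiquitin ligase PIRH2, averaged 8.64 ± 0.061 in vehicle and 8.94 ± 0.19 in DHA arrays (SD, n = 3 each; limma adjusted p = 0.314). Usp10, a deubiquitinase that stabilises p53, differed by -0.23 log2 units (adjusted p = 0.259, limma), and Ep300, an acetyltransferase coactivator of p53, had 0.15 (limma adjusted p = 0.328). Of the p53 family, Trp73 differed by 0.20 log2 units (adjusted p = 0.496, limma) and Trp63 lay under the filter, with means of 4.34 in vehicle and 4.39 in DHA arrays.

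The other inhibitors of cyclin-dependent kinases were read beside Cdkn1a, Cdkn2a and Cdkn2b, and none of the 4 passed the limma test. Cdkn1b, which encodes p27, differed by 0.087 log2 units (95% interval -0.16 to 0.34; adjusted p = 0.781, limma). Cdkn1c, which encodes p57, had 0.025 (adjusted p = 0.936, limma) and Cdkn2d, which encodes p19INK4d, -0.048 (adjusted p = 0.862, limma). Cdkn2c, which encodes p18INK4c, averaged 9.58 ± 0.041 in vehicle and 9.45 ± 0.098 in DHA arrays (SD, n = 3 each; limma adjusted p = 0.456), with groups that did not overlap. Trp53cor1, a long RNA next to Cdkn1a that p53 is known to induce, was chosen outside the naming rule. It measured 6.99, 6.99 and 6.82 with vehicle and 7.59, 7.04 and 7.35 with DHA (log2 fold change 0.39, 95% interval 0.072 to 0.71; limma adjusted p = 0.332). Its estimate was positive where that of Cdkn1a was negative, and the difference between them was not tested.

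The labelled cell type was checked with marker genes. Of 12 markers of B-cell precursors 10 were measured, with signals at a median percentile of 98.7, among them Igll1 at 13.04 with vehicle and Ebf1 at 11.70. The lowest, Vpreb1, a surrogate light chain gene, was at the 35.2th percentile (4.78 in vehicle). Groups did not overlap in 1 higher B-cell precursor marker, Ebf1 (0.13 log2 units, limma adjusted p = 0.416). They did not overlap in 2 lower ones, Cd24a (-0.16, limma adjusted p = 0.32) and Igll1 (-0.12, limma adjusted p = 0.363). Of all tested genes, 7.64% were apart and higher and 8.19% apart and lower. Markers of T and NK cells, myeloid cells, erythroid cells and megakaryocytes, and stromal cells had median percentiles of 26.6, 31.0, 35.4 and 47.2. The highest of these was Pecam1 of the stromal list, an adhesion molecule that leukocytes also make, at the 88.5th percentile, with 9.34 ± 0.039 in vehicle and 9.52 ± 0.037 in DHA arrays (SD, n = 3 each), groups that did not overlap and a limma adjusted p of 0.220. None of the 5 lists held a gene past the limma test. Averaged over the T and NK cell list, the level was between 4.35 and 4.42 in vehicle and between 4.32 and 4.43 in DHA arrays, and over the myeloid list between 4.33 and 4.47 and between 4.41 and 4.44. For the erythroid and megakaryocyte list these ranges were 4.74 to 4.85 and 4.77 to 4.82, for the stromal list 5.62 to 5.70 and 5.67 to 5.74, and for the B-cell precursor list 10.85 to 10.88 and 10.82 to 10.86. The part of other cells in the results was not tested. In bulk RNA, fewer cells with a transcript and less of it in each cell cannot be told apart.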

How the data were processed

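Each deposited value is a log2 intensity of 1 probe set on 1 Affymetrix array. RMA was used for them and Partek 6.6 is named, per the submitters' processing notes, which give no settings here. RMA tends to understate differences of dim genes. No scanner file was used. Of 41345 probe sets, 23521 carried 1 gene symbol in the platform annotation, 1814 several and 16010 none. Symbols were updated through Entrez identifiers to RefSeq (GRCm38.p6), where 23328 matched. The brightest probe set by 6-array mean stood for each of 22180 genes, and 6654 under the 30th percentile were left out.

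DHA was compared with vehicle by limma 3.58.1 in R 4.3.3 (linear model, default empirical Bayes, two-sided, Benjamini-Hochberg over 15526 genes). Permutation tests were exact and two-sided. The fit was also run on simulated data with independent noise in each array, which is no check on the spread between the real arrays. Array medians lay between 5.25 and 5.31 and correlations between arrays from 0.9925 to 0.9947; 3 arrays per group limit the precision. Alternatives were leaving out arrays, other filters, scalings, probe set rules, variance settings, array weights and a title code that 1 vehicle and 1 DHA array share. The genes, lists and alternatives were chosen with earlier results of these data known. The naming rule took all 10 genes, called genes and the 3 smallest p of each list. It took in full the other kinase inhibitors and 4 chosen genes near Cdkn2a, which are not all of its neighbours. For lists of other cell types the text gives levels and counts. Promoters came from RefSeq (GRCm38.p6).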

Additional observations from a re-analysis of the deposited data

How the results depend on the processing

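No paired analysis was possible because replicate numbers came from accession order and vehicle and DHA shared only 1 title code, on vehicle replicate 3 and DHA replicate 2. None of the 9 genes passed the limma test in any of 16 alternatives (adjusted p from 0.185 up), and 141 of 144 estimates kept their sign. The 3 that did not were Mdm2 without vehicle replicate 3 (0.052) and without both arrays of the shared code (0.045), and Trp53inp1 without vehicle replicate 2 (-0.054). Leaving out single arrays gave -0.090 to 0.052 for Mdm2 and -0.054 to 0.11 for Trp53inp1. As the groups of Cdkn1a, Ccng1, Phlda3 and Cdkn2a did not overlap, leaving out arrays could not turn their signs. Groups of Cdkn2a overlapped after median centring and those of Phlda3 after quantile normalization.

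The count of genes called over the whole array, 14, lay between 0 and 24 when single arrays were left out. Filtering gave 62 at the 50th percentile and 5 when omitted, quantile normalization 63, and median centring 52. The count was 62 with trend and robust moderation, 80 at an adjusted p of 0.1, 41 with a term for the title code and 0 without both arrays that share it. Some of these settings use fewer arrays or genes; apart from that, the cause was not tested. Of 175 list medians under alternatives, 17 moved by more than the spread between arrays. Half-site matches rose from 6 windows to 7 with 1 mismatch allowed, and 2 windows held adjoining or near pairs of such matches, an alternative chosen after seeing the data; over all windows these shares were 50.9% and 2.71%.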
